A study of Mus musculus with 8 samples.

Results

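H3K27me3 was examined at 42 genes of the fibroblast matrix and myofibroblast programme in mouse 3T3 fibroblasts, an immortalised embryonic line. The list was written from the functions of the genes, with earlier results of these data known. The marked regions at each gene were those of the authors' deposited table that overlapped its RefSeq span extended by 2 kb on both sides. All 42 genes matched a RefSeq protein-coding gene of GRCm38, and 7 of them carried a listed region, 145 regions in all out of 265968 in the table. The cells carried either a control construct or a construct overexpressing NNMT, nicotinamide N-methyltransferase, with 3 immunoprecipitated libraries per construct, called biological replicates in the labels, and 1 input library each. Both populations were kept for 48 h in methionine-free DMEM brought to 10 µM methionine with 10% dialyzed serum. The labels name neither the promoter of the construct nor whether the cells were a clone or a pool. The comparison asks at which genes NNMT overexpression goes with a different level of the mark.

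The table lists regions that differ between 2 sets of 3 libraries and does not say which set carried NNMT. They are called the first set and the second set, by their place in the table, and no direction below is tied to NNMT. The libraries of a set are not named either. Their values are given in the order listed, and each ratio carries the lowest and highest of the 9 ratios between single libraries of the 2 sets (written as over pairs). Summed over the table, the libraries ran from 39899303 to 41971892 in the first set and from 35565866 to 36958436 in the second, a ratio of 1.14. Since the regions had been selected for a difference, and 3 against 3 libraries cannot give an exact permutation p below 0.1, no test was made on them and the counts are descriptions. The authors' p, from an unnamed test, ran up to 0.1 in listed regions, so listing alone does not establish a difference. A gene absent from the table may lack the mark or carry it alike in both sets. A difference in DNA dosage between the populations and a difference in the mark cannot be told apart, because library totals and input values were not used here.

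H3K27me3 is written by Polycomb repressive complex 2, whose catalytic subunit is EZH1 or EZH2, and is found at genes that are kept silent. NNMT consumes S-adenosylmethionine, the methyl donor of that enzyme. Fibroblasts secrete and remodel the extracellular matrix, and when activated into myofibroblasts they assemble contractile filaments and deposit more matrix. The genes below include the structural proteins of that matrix, the enzymes that cross-link and cut it, the contractile proteins and the receptors that bind matrix or growth factors.

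Most of these genes had no listed region. A region was carried by 7 of 42 genes (16.7%), against 31.2% of all 21887 protein-coding genes. All 7 carried a region higher in the first set (16.7% of the genes, against 26.5% of all genes), and 1, Eln, also carried regions higher in the second set (2.38%, against 18% of all genes). By length of the gene span, 1 of 11 genes under 10 kb carried a region (24.9% of all genes of that length), 2 of 21 of 10 to 50 kb (31.6%) and 4 of 10 of 50 kb or longer (40.6%). The median span of the 42 genes was 20.5 kb, and that of all genes 17.2 kb.

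The carriers fell in several of the roles. They were the elastic fibre genes Fbln1 and Eln (2 of 4 in that role), the collagen-modifying enzyme gene P3h2 (1 of 4 cross-linking and modifying enzymes), the protease genes Mmp9 and Fap (2 of 9 proteases and inhibitors), the myosin light chain gene Myl9 (1 of 6 contractile and cytoskeletal genes) and the integrin gene Itga11 (1 of 5 surface receptors). None of the 10 matrix glycoprotein and matricellular genes and none of the 4 proteoglycan genes carried one. Over all protein-coding genes the share with a region was 31.2%, and roles of 4 to 10 genes are too small to compare with it. P3h2, Fbln1 and Eln held 135 of the 145 regions and 98.1% of the summed values.

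Summed over the regions of each gene, all 7 carriers were higher in the first set and had values that did not overlap between the sets. Among all 6833 genes with regions, 69.3% were higher in the first set and 81.4% did not overlap. Rescaling the sets to equal sums left 6 of the 7 higher in the first set, all but Eln (log2 ratio -0.046). The share of all genes higher in the first set was not computed under that rescaling. A ratio of at least 2-fold in favour of the first set was reached by 4 of the 7, P3h2, Itga11, Fbln1 and Fap, against 16% of all genes with regions. With the sets rescaled to equal sums, Fbln1 (log2 ratio 0.99) and Fap (0.88) no longer reached it and 2 of the 7 did, against 10.3% of all genes with regions. The median log2 ratio of the first set over the second set was 1.07 over the 7 carriers and 0.37 over all genes with regions. Of the 145 regions, 137 were higher in the first set (94.5%, against 59.5% of all listed regions). Of these, 105 stood at a log2 ratio of at least 1, or 2-fold (72.4% of the 145, against 22.3%). In 123 the values did not overlap between the sets (84.8%, against 65.1%). P3h2 and Fbln1 gave 67 and 42 of the 137, 66 and 34 of the 105, and 64 and 41 of the 123. The shares thus describe mainly those genes, and neighbouring regions of a gene are not independent.

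**Figure D1:**
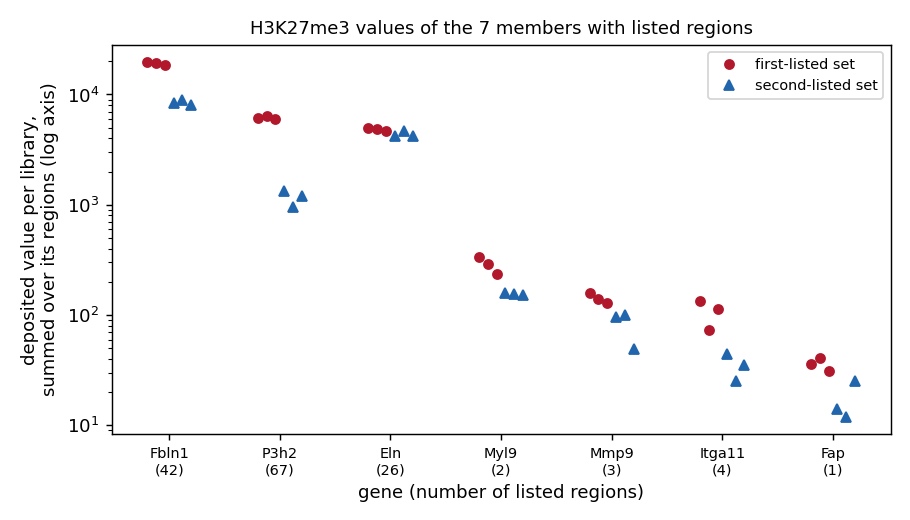
Deposited H3K27me3 value per library, summed over the listed regions of each of the 7 carriers (log axis), drawn as circles (first set) or triangles (second set). The sets lie apart in every gene, most widely in P3h2 (5.34-fold) and least in Eln (1.11-fold).

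P3h2 encodes a prolyl 3-hydroxylase that modifies collagen chains, basement membrane collagen among them, and its gene (chromosome 16, 25959284 to 26105813) showed the largest ratio of the 7. In the authors' deposited table its 67 regions summed to 6164, 6427 and 6013 in the first set and to 1321, 956 and 1209 in the second set. Every library of the first set thus lay far above every library of the second, at 5.34-fold (4.55 to 6.72 over pairs). A log2 ratio of 2.42 or more was found in 0.79% of all genes with regions, and in 0.805% of the 1118 genes with at least 26 regions.

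All 67 regions of P3h2 were higher in the first set, 66 of them at a log2 ratio of at least 1 and 64 without overlap between the sets. Over all listed regions these shares were 59.5%, 22.3% and 65.1%. Among all genes with at least 26 regions, 19.2% had every region higher in the first set. The regions fell in a pair of blocks separated by 54.5 kb without a listed region. The low-coordinate block (25970601 to 26038400, 57 regions) had values of 5787, 5944 and 5576 in the first set and 1184, 882 and 1109 in the second set, a ratio of 5.45 (4.71 to 6.74 over pairs). The high-coordinate block (26092851 to 26107650, 10 regions) had values of 377, 483 and 437 in the first set and 137, 74 and 100 in the second set, a ratio of 4.17 (2.75 to 6.53 over pairs). Both blocks thus moved the same way and by ratios whose ranges overlap.

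The region of P3h2 with the largest summed value (26009151 to 26012700, 3.55 kb) stood at 909, 867 and 989 in the first set and 210, 129 and 175 in the second set in the authors' deposited table, 5.38-fold (4.13 to 7.67 over pairs). The largest ratio among its regions that summed to at least 100 was 12.5, over 450 bp at 25976051 to 25976500, with 91, 133 and 76 in the first set against 0, 0 and 24 in the second set. Of the 67 regions, 28 were listed at 0 in at least 1 library of the second set and 3 in all of them. Those 28 held 4.91% of the summed values of the second set, and the 4 regions with the largest summed values held 53.8%. The regions were short, with a median of 150 bp and 23 of the shortest listed length, 50 bp, and together they covered 18.6% of the gene span.

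The direction of P3h2 was opposite to that of its chromosome as a whole, but not to that of its surroundings. Of the 10076 listed regions on chromosome 16, 33.6% were higher in the first set, and the chromosome's summed values stood at 0.862 of the second set. Within 1 Mb of the gene, its own regions left out, 137 of 239 regions were higher in the first set (57.3%, against 59.5% of all listed regions). Their ratio was 1.14, as over the whole table. Within 100 kb this was 20 of 20, with a ratio of 2.4, so the regions next to the gene shared its direction at a smaller ratio. Nor was P3h2 alone in this: Mylk, on the same chromosome, had all 221 of its regions higher in the first set, at 9.29-fold.

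Fbln1 encodes fibulin-1, a calcium-binding glycoprotein of elastic fibres and basement membranes, and its gene (chromosome 15, 85205949 to 85286294, plus strand) held the largest summed values. In the authors' deposited table its 42 regions summed to 19564, 19363 and 18549 in the first set and to 8353, 8883 and 7987 in the second set. The ratio was 2.28 (2.09 to 2.45 over pairs), with a gap between the sets several times the spread within them. All 42 regions were higher in the first set and 41 had values that did not overlap, against 59.5% and 65.1% of all listed regions. The 42 regions covered 85.9% of the gene span, against 18.6% for P3h2. The listed signal was thus a nearly continuous domain at Fbln1 and a broken one at P3h2.

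The ratio was not even along Fbln1. The span was divided into 4 equal segments of 20.1 kb, and in the segment nearest the start the ratio was 2.72 (2.37 to 3.04 over pairs). In the next segment it was 4.81 (4.65 to 4.96), then 1.94 (1.77 to 2.12), and 1.63 in the last (1.5 to 1.77). The ranges of the first 3 segments do not overlap one another, and that of the last lies just below that of the third. Per kb of listed region, the mean value in the first set was 243, 281, 241 and 256 in these segments, while in the second set it was 89.4, 58.5, 124 and 158. Only listed regions, all higher in the first set, enter these means, and how their selection bears on the level in that set was not tested. The region with the largest ratio among those that summed to at least 100 (85247251 to 85247800, 550 bp) stood at 143, 121 and 130 in the first set and 11, 3 and 6 in the second set, 19.7-fold (11 to 47.7 over pairs). The largest summed value belonged to a region of 12.8 kb that reached 4906 bp past the end of the gene (85278451 to 85291200), with 3213, 3410 and 3268 in the first set and 2132, 2027 and 1907 in the second set, 1.63-fold (1.51 to 1.79 over pairs).

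The promoter table from RefSeq (GRCm38.p6) holds starts for 24 of the 42 genes. Of these, 1, Fbln1 (4.17%), had a listed region within 2 kb of a start, against 22.2% of the 17492 genes with a start in the table. The other 18 genes, P3h2, Eln, Mmp9 and Fap among them, could not be assessed. Eln had listed regions within 2 kb of both ends of its span (134701101 to 134701400 at the low-coordinate end, 134742951 to 134746750 and 134747651 to 134748350 at the other). Mmp9 had one across its low-coordinate end and another that began 1.675 kb inside it. P3h2 had one that began 1588 bp past its high-coordinate end. Another lay inside that end (26104051 to 26104250), with values that overlapped between the sets. At Fbln1 there were 8 regions within 2 kb of a start, all higher in the first set. The one with the largest summed value before the start (85205251 to 85205750) stood at 99, 109 and 127 in the first set and 2, 43 and 16 in the second set in the authors' deposited table, 5.49-fold (2.3 to 63.5 over pairs, a range set by the lowest library of the second set). The largest after it (85207401 to 85208600) stood at 289, 274 and 217 in the first set and 108, 101 and 62 in the second set, 2.88-fold (2.01 to 4.66 over pairs). Both had sets that did not overlap, and the listed signal left a stretch around the start itself.

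Of the 3 carriers with a start in the table, Fbln1 has listed regions on both sides of it but none over it. The other 2 have none within 2 kb. The promoters of all 3 are shown. Each runs 5′ to 3′ on the plus strand from 250 bases before the start site to 50 after it, and capitals mark every CG dinucleotide, the site of CpG methylation, which reads the same on both strands. The windows are Fbln1 at chr15:85205699-85205998, Itga11 at chr9:62677605-62677904 and Myl9 at chr2:156775214-156775513.
Fbln1: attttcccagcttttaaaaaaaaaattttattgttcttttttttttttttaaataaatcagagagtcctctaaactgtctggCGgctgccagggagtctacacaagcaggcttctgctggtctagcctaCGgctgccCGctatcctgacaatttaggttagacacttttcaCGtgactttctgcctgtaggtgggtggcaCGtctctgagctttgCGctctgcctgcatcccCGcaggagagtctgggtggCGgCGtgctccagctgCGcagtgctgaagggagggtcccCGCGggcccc
Itga11: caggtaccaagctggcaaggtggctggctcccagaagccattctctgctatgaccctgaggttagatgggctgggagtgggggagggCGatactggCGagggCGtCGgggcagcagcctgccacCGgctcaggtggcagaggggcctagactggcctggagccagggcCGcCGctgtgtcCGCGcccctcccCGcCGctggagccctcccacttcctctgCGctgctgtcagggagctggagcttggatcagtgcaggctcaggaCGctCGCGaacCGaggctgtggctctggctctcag
Myl9: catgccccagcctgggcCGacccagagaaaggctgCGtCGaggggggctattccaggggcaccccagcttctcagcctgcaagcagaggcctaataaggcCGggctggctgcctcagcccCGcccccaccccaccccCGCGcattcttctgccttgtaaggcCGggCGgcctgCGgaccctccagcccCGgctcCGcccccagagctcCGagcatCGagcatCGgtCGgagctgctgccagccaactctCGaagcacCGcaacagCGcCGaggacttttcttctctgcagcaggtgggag

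The Fbln1 window holds 12 CG and the region that ends 199 bp before its start site covers its first 52 bases, which hold 0 CG. Itga11 has 16 CG and its nearest own region lies 10946 bp from the start. Myl9 has 20 CG and its nearest region lies 7387 bp away. Over the first listed promoter of each gene, the median was 13 CG in all 17492 genes and 8.5 in the 24 genes here, which ranged from 1 in Mmp3 and Mmp13 to 24 in Timp3. At least 1 CG is held by 94.8% of all promoters, and 12 or more by 53.3%. In all genes, promoters with a listed region within 2 kb had a median of 7 CG and those without had 15. The CArG box, the element bound by serum response factor, was searched on both strands in its strict form, CC, a run of A or T only, then GG. It matched 1 of the 24 windows, that of Myl9, as CCTAATAAGG, against 1.54% of all promoters of the same length. Near matches, such as ccctatatgg and ccttgtttgg in the Acta2 window, were not counted, so a window without a match may still hold such a box. These matches are descriptions of the sequence and of nothing bound to it.

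Eln encodes elastin, the rubber-like core of elastic fibres, and its gene (chromosome 5, 134702595 to 134747368) carried regions in both directions. Among genes with regions this is common (42.7%), but Eln was the only one of the 7 carriers to do so. In the authors' deposited table its 26 regions summed to 4927, 4840 and 4682 in the first set and 4180, 4634 and 4225 in the second set. The sets were narrowly apart, at 1.11-fold (1.01 to 1.18 over pairs), which is below the ratio of 1.14 between the sets' totals. With the sets rescaled to equal sums the log2 ratio of Eln turned from 0.15 to -0.046, so the gene as a whole has no direction independent of the scaling.

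Within Eln, 18 regions over 14.6 kb were higher in the first set and 8 over 8.45 kb were higher in the second set. Regions with values that did not overlap numbered 11 of 26, against 65.1% of all listed regions. None reached 2-fold, while 22.3% of all listed regions were at least 2-fold higher in the first set. The regions higher in the second set gathered in the second of 4 equal segments of the span, counted from its low-coordinate end, where 5 of 6 regions were higher in the second set. Values there were 1613, 1506 and 1389 in the first set and 1766, 1975 and 1778 in the second set, so the first set stood at 0.817 of the second set (0.703 to 0.913 over pairs). In the third segment, 7 of 7 regions were higher in the first set, with 831, 776 and 777 against 501, 606 and 419, 1.56-fold (1.28 to 1.98 over pairs). The first and last segments also favoured the first set, at 1.33-fold (1.1 to 1.61) and 1.21-fold (1.08 to 1.35). Both of these ranges reach below 1.14, the ratio between the sets' totals, and the segments were not rescaled.

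The largest region of Eln (134742951 to 134746750, 3.8 kb) stood at 989, 1091 and 1113 in the first set and 776, 904 and 782 in the second set in the authors' deposited table, 1.3-fold (1.09 to 1.43 over pairs). The largest ratio towards the first set, 1.85, belonged to a region of 350 bp whose values overlapped, at 70, 36 and 68 against 54, 20 and 20. The largest towards the second set, 1.46-fold, belonged to 750 bp at 134717351 to 134718100, with 151, 129 and 130 in the first set and 213, 226 and 161 in the second set, which did not overlap. On its chromosome, 44.7% of regions were higher in the first set, and within 1 Mb of Eln this was 52%.

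**Figure D2:**
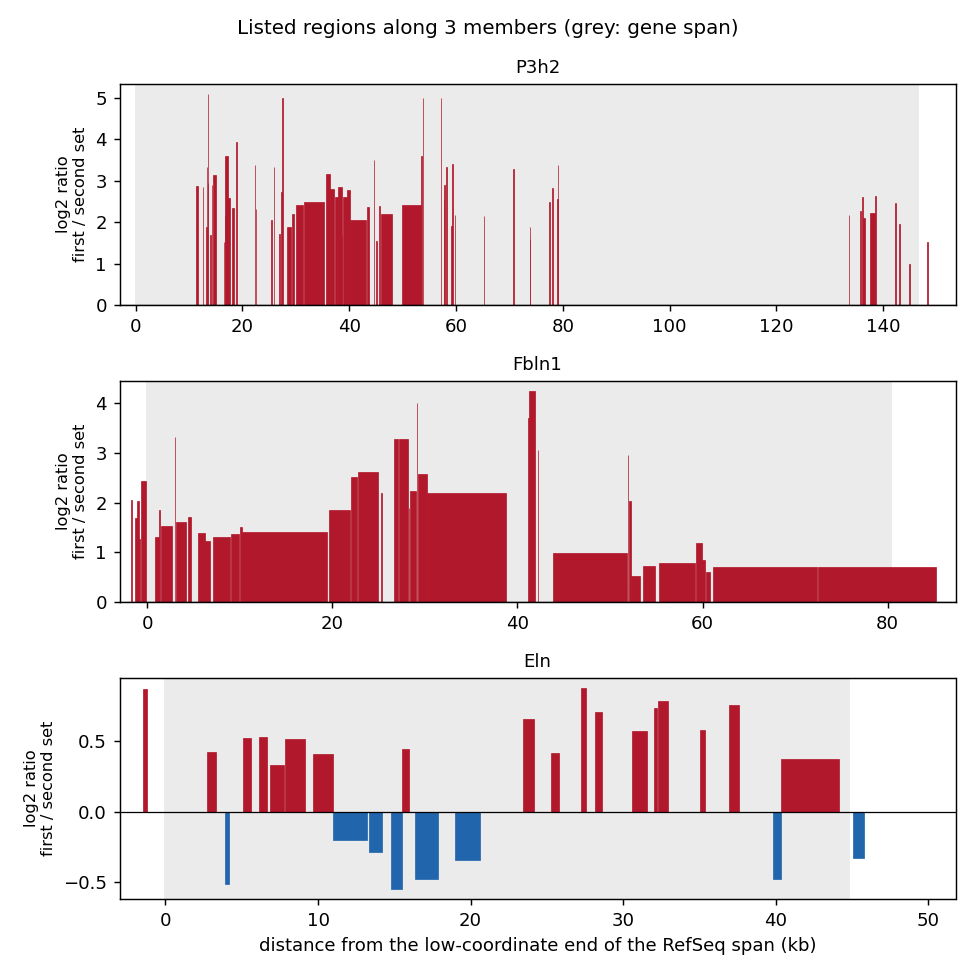
Log2 ratio of the first set over the second set (vertical axis, a different scale in each panel) for the listed regions of P3h2, Fbln1 and Eln against distance in kb from the low-coordinate end of the RefSeq span (grey), with bar width equal to region length, red for higher in the first set and blue for higher in the second set. P3h2 and Fbln1 are red throughout, with P3h2 empty over 54.5 kb and Fbln1 falling after its second segment, while the blue regions of Eln gather in its second segment.

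The other 4 carriers held 10 regions, all higher in the first set. Itga11 encodes the integrin alpha-11 chain, a fibroblast receptor for fibrillar collagen (chromosome 9, 62677855 to 62783979). In the authors' deposited table its 4 regions summed to 133, 73 and 113 in the first set and 44, 25 and 35 in the second set, 3.07-fold (1.66 to 5.32 over pairs). Each was 200 bp or shorter, and they covered 0.565% of the span. The one with the largest summed value (62701701 to 62701900) stood at 39, 28 and 31 in the first set against 25, 11 and 17 in the second set, without overlap. The next (62702151 to 62702350) had overlapping values, 48, 11 and 50 against 14, 3 and 8. The next nearest listed region lay more than 100 kb from the gene.

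Myl9 encodes the regulatory myosin light chain of smooth muscle and myofibroblasts (chromosome 2, 156775408 to 156781657). Neither of its 2 regions touched the gene span: they began 1194 and 1844 bp past its downstream end. In the authors' deposited table they summed to 339, 292 and 237 in the first set and 159, 156 and 153 in the second set, 1.85-fold (1.49 to 2.22 over pairs). The sets did not overlap, and the larger region (156783501 to 156784800) gave nearly all of the value, at 327, 276 and 219 against 151, 147 and 151.

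Mmp9 encodes gelatinase B, a secreted protease (chromosome 2, 164940326 to 164955850). In the authors' deposited table its 3 regions summed to 160, 141 and 129 in the first set and 97, 101 and 49 in the second set, 1.74-fold (1.28 to 3.26 over pairs). Of the single regions, 1 of 3 had values that did not overlap (164943651 to 164943950), at 54, 51 and 51 against 37, 33 and 12. All 3 lay at the low-coordinate end of the span.

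Fap encodes fibroblast activation protein, a surface serine protease used as a marker of activated fibroblasts (chromosome 2, 62500936 to 62575509). Its single region of 200 bp (62529901 to 62530100) stood at 36, 41 and 31 in the first set and 14, 12 and 25 in the second set in the authors' deposited table, 2.12-fold (1.24 to 3.42 over pairs). A region 4.04 kb from the gene went the other way, with 62, 41 and 8 in the first set and 107, 81 and 59 in the second set. With a flank of 5 kb that region was included and the log2 ratio of Fap turned from 1.07 to -0.44. Within 1 Mb of Fap, 14 of 16 other regions were higher in the second set.

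Per kb of listed region, the level spanned a narrower range over the carriers in the first set than in the second set. The mean value per kb in the first set ran from 159 at Mmp9 to 255 at Fbln1, with P3h2 at 225, Eln at 209, Myl9 at 207, Fap at 180 and Itga11 at 177. In the second set it ran from 42.2 at P3h2 to 189 at Eln, with Itga11 at 57.8, Fap at 85.0, Mmp9 at 91.5, Myl9 at 111 and Fbln1 at 112. In every one of the 145 regions the higher set reached at least 140 per kb. The same was true of 99.9% of all listed regions, whose median in the higher set was 184 per kb. The first set was the higher one in 137 of the 145 regions. How far their selection narrows its range was not tested, so the contrast describes listed regions alone.

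**Figure D3:**
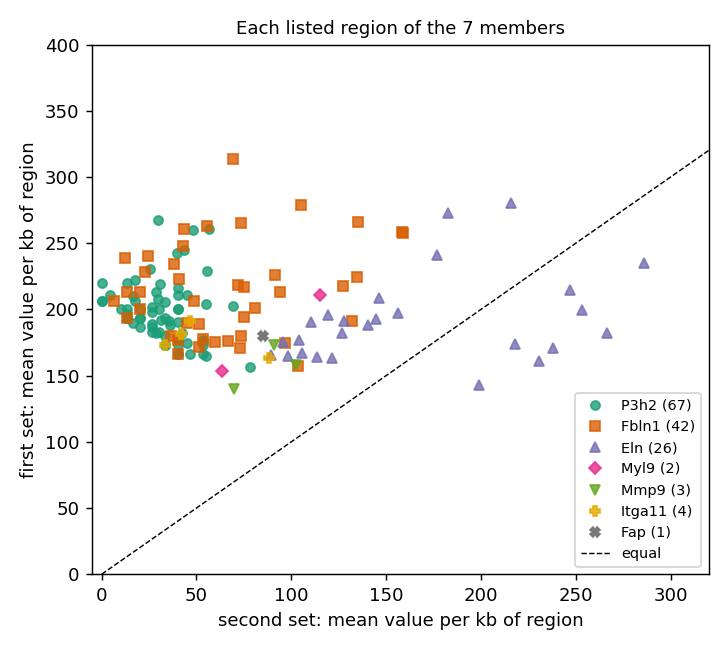
Mean deposited value per kb of region in the first set (vertical axis) and the second set (horizontal axis) for each of the 145 listed regions of the 7 carriers, with the dashed line at equal values. P3h2 and Fbln1 lie wholly above the line and Eln lies on both sides of it.

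The remaining 35 genes had no listed region. Among matrix glycoproteins these were Fn1 (fibronectin), Postn (periostin), Tnc (tenascin-C), Sparc, Spp1 (osteopontin), the thrombospondins Thbs1, Thbs2 and Comp, Cthrc1 and Ccn2. Fbn1 (fibrillin-1) and Fbln2 (fibulin-2) of the elastic fibre had none, although Fbln2 is the nearest relative here of Fbln1. The proteoglycans Dcn, Lum, Bgn and Vcan and the cross-linking lysyl oxidases Lox, Loxl1 and Loxl2 had none. So did the collagenases, stromelysins and related proteases Mmp2, Mmp3, Mmp11, Mmp13 and Mmp14, and their inhibitors Timp1 and Timp3. The contractile genes Acta2 (smooth muscle actin), Tagln and Cnn1, the filament gene Vim, the calcium-binding S100a4, and the surface proteins Pdgfra, Pdgfrb, Thy1 and Pdpn complete the list.

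The distance from these 35 genes to the nearest listed region had a median of 53.4 kb. It was shortest at Comp (5.45 kb), Postn (6.32 kb) and Sparc (7.96 kb). It was longest at Lum (1475 kb), Dcn (1389 kb) and Vcan (1168 kb). Thus 3 of the 4 proteoglycan genes lay over 1 Mb from any listed region. Lum and Dcn are neighbours and share that surrounding. A region within 100 kb was found for 27 of the 35 (77.1%), against 71.3% of all genes without a region of their own.

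The regions around these genes were mostly higher in the first set. Counting each once, 853 of the 969 regions within 100 kb were (88%), against 59.5% of all listed regions. More regions were higher in the first set than in the second set around 25 of the 27 genes (92.6%, against 76.1% of all such genes), and all were around 14 (51.9%, against 31.5%). Around Bgn, a small proteoglycan gene, all 82 regions were higher in the first set, as were all 76 around Timp3, 66 around Tnc, 49 around Pdgfrb and 44 around Fn1. Around Pdgfra, the receptor gene with the most, 82 were higher in the first set and 28 in the second set. The 2 genes with the opposite balance were Mmp3, with all 8 higher in the second set, and Postn, with 23 higher in the first set and 28 in the second set. These regions lie outside the genes and belong as much to other genes.

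**Figure D4:**
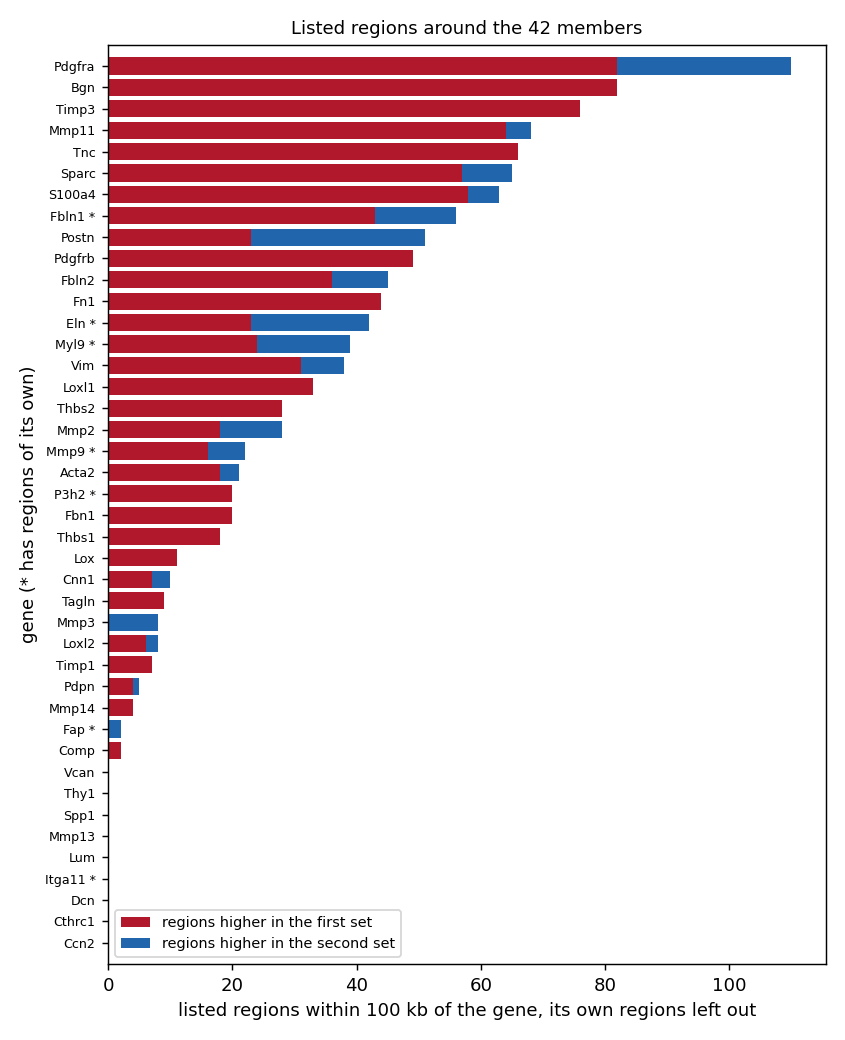
Number of listed regions within 100 kb of each of the 42 genes, its own regions left out (horizontal axis), in red for those higher in the first set and blue for those higher in the second set, with an asterisk at the 7 carriers. Red prevails at most genes, Mmp3 and Fap have blue regions alone, and 9 genes have no region, among them the carrier Itga11.

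Of 85 other matrix genes (further proteases, laminins, fibulins, proteoglycans and cross-linking enzymes), 39 carried a region (45.9%, against 31.2% of all genes). Of the 85, 34 carried one higher in the first set, against 26.5% of all genes, and 17 one higher in the second set, against 18%. Their summed values were higher in the first set in 31 of the 39 (69.3% of all genes with regions) and in the second set in 8, with a median log2 ratio of 0.77 (0.37 over all genes with regions). No test was made between this list and the 42 genes. The largest summed values towards the first set were those of Acan, the cartilage proteoglycan aggrecan (1.22-fold, 1.11 to 1.33 over pairs), the matricellular gene Smoc2 (1.85-fold, 1.67 to 2.01) and the laminin chain gene Lamc3 (1.52-fold, 1.31 to 1.7). Towards the second set they were those of Lama1, the embryonic laminin alpha chain (1.56-fold, 1.42 to 1.75), the neural proteoglycan gene Ncan (1.11-fold, 1.03 to 1.2) and Mmp17 (1.23-fold, 1.06 to 1.36).

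Of 39 integrin, TGF-beta, serum response factor and smooth muscle genes, 9 carried a region (23.1%, against 31.2% of all genes). Of the 39, 7 carried one higher in the first set, against 26.5% of all genes, and 6 one higher in the second set, against 18%. Among the 9 with a region, summed values were higher in the first set in 5 and in the second set in 4. Over all genes with regions, 69.3% were higher in the first set. The kinase that phosphorylates the Myl9 protein is encoded by Mylk, which held 221 regions, all higher in the first set, at 9.29-fold (7.88 to 10.5 over pairs). Lmod1, an actin nucleator of smooth muscle, stood at 1.51-fold (1.26 to 1.8), and the smooth muscle myosin gene Myh11 at 1.14-fold (1.07 to 1.2), no more than the ratio of the sets' totals. Myocd, the coactivator of serum response factor in smooth muscle, went the other way, with all 29 regions higher in the second set at 2.2-fold (1.82 to 2.51 over pairs). Actg2 (1.23-fold, 1.08 to 1.42) and Itga9 (1.39-fold, 1.22 to 1.57) were also higher in the second set.

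Markers of cell types were counted too, but a table of regions that differ between the sets cannot check the fibroblast label. Of 7 fibroblast genes, 5 of them among the 42, 0 carried a listed region, against 31.2% of all genes. Of the smooth muscle and myofibroblast markers Acta2, Tagln, Cnn1 and Myh11, only Myh11 carried any, 49 regions. Both lists are too short for a comparison with that share. Of 15 epithelial, endothelial and immune markers, 11 did (73.3%, against 31.2% of all genes), and summed values were higher in the first set in 10 of these (69.3% of all genes with regions). The largest were Vwf (1.26-fold, 1.18 to 1.31 over pairs), Laptm5 (1.51-fold, 1.39 to 1.62) and Tie1 (1.4-fold, 1.29 to 1.54), and Cd3e stood at 1.02-fold towards the second set with overlapping values. The table holds no expression values, so these counts do not show which of the genes were active.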

How the data were processed

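CASAVA, Trimmomatic 0.36, BWA 0.7.17 and the build GRCm38 are named in the submitters' processing notes. No source used here names the program that called the regions, how it scaled them or whether the inputs entered. The deposited table has no header. Its last column holds 3 whole numbers for each of 2 sets of libraries and a number read as −log10 p, and another column is a constant score in every deposited row. Whether the authors rescaled the values before rounding is not known, so they were not treated as raw counts, and sequencing depth is unknown. The p was not used, except for its ceiling given above and in 1 alternative.

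Regions were joined to RefSeq spans (GRCm38.p6) extended by 2 kb, with an overlap of at least 1 bp, in Python 3.11.15 with pandas 2.3.3. Direction is the larger sum of a set's 3 values, and log2 ratios are of summed values plus 1. Shares are set beside those of all 21887 protein-coding genes. The genes and lists were chosen with earlier results of these data known. Named genes were all 42, and in the other lists the 3 with the largest summed value per direction. The segments and blocks of single genes (regions placed by their midpoint) and the window of 1 Mb were chosen after the values were seen. The overlap step was checked on simulated regions, with 0 of 300 windows differing. Start sites were known for 24 of the 42 genes. Alternatives covered the flank, the overlap, region length, p, scaling, the pseudocount and each library left out.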

Additional observations from a re-analysis of the deposited data

How the results depend on the processing

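The count of genes with a region stayed between 5 and 7 in every alternative run: without a flank Myl9 was lost, at the authors' p under 0.01 Mmp9 and Fap were lost, and with regions of at least 300 bp Itga11 and Fap were lost. Of 93 log2 ratios recomputed for the 7 carriers, 89 moved by less than 1 SD of the library pairs, 2 moved by more without changing direction, and 2 reversed. Leaving out 1 library can hardly move a ratio by more than that SD, by construction. The 89 include those runs and are not a measure of stability. Eln reversed to -0.046 with the sets rescaled to equal sums, which lowers every log2 ratio by 0.19, and Fap to -0.44 with a flank of 5 kb, which adds the region described above. That flank also raised the genes with a region higher in the second set from 1 to 2. When only the 76 regions of at least 300 bp were kept, regions whose values did not overlap fell from 123 to 60, and regions at a log2 ratio of at least 1 towards the first set from 105 to 41. Genes at least 2-fold higher in the first set fell from 4 to 2 with those regions and also with the sets rescaled, and ran from 3 to 5 with each library left out. The alternatives for both of these 2-fold counts were chosen after seeing the data. Leaving out each library in turn gave log2 ratios of 2.29 to 2.52 for P3h2, 1.15 to 1.23 for Fbln1 and 0.12 to 0.20 for Eln, and reversed none of the 7. No paired analysis was possible because the library values carry no replicate numbers. Depth is unknown, so the low values of Fap, Itga11 and Mmp9 carry a counting error that could not be computed.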
